A study of Mus musculus with 8 samples.

Results

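The genes described here are the constant region genes of the mouse antibody chains and the gene of the J chain, 10 genes chosen by symbol out of 56953 gene identifiers in the count table. They are the light chain genes Igkc (ENSMUSG00000076609), Iglc1 (ENSMUSG00000105906), Iglc2 (ENSMUSG00000076937) and Iglc3 (ENSMUSG00000105547), the heavy chain genes Ighm (ENSMUSG00000076617), Ighd (ENSMUSG00000104213), Ighg1 (ENSMUSG00000076614), Ighg2b (ENSMUSG00000076613) and Igha (ENSMUSG00000095079), and Jchain (ENSMUSG00000067149). All 10 were found in the table. They were proposed because immunoglobulin RNA was higher in treated than in saline tumours of these same libraries, so their values in that contrast are given as a description and without a test.

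The libraries were made from CT26, a line of mouse colorectal carcinoma cells, in 4 groups of 2. Transplanted CT26 tumours were given normal saline or mLJZD, a drug whose abbreviation the labels leave unexpanded and for which they give no dose. CT26 cultures were kept for 48 hours with 10% serum, either control serum or serum that held mLJZD. The labels give no genotype, host strain, age or time of treatment for the tumour-bearing animals, and do not state if a group's libraries stem from different animals or dishes, so the spread between them, on which the p-values rest, may be technical. The cultures contain no host cells and serve as the blank for genes of host B lineage cells.

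An antibody is built from heavy and light chains, each with a variable part that binds antigen and a constant part. In the mouse most light chains are kappa, with the constant region encoded by Igkc, and a minority are lambda. B cells first make heavy chains with the constant region of IgM and, by alternative splicing of the same transcript, IgD. Class switch recombination then joins the same variable part to the constant region of an IgG subclass, IgE or IgA. Plasma cells secrete large amounts of antibody, and the J chain links IgM pentamers and IgA dimers.

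The constant genes differ in how far reads can be told apart, which matters for the subclasses and for lambda. The hinge exon, the short second exon of each gamma gene, sets the IgG subclasses apart. It is given here for the 4 gamma genes, from GENCODE M21 transcripts (build GRCm38), 5′ to 3′, with capitals in Ighg2b and Ighg2c where this most similar pair differs in the alignment.
Ighg1: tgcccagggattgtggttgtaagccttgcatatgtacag
Ighg2b: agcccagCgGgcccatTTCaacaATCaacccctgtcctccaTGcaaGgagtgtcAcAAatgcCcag
Ighg2c: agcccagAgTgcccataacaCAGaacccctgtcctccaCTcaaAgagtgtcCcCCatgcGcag
Ighg3: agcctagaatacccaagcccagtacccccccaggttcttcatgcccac

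The hinge has 39 bases in Ighg1, 66 in Ighg2b, 63 in Ighg2c and 48 in Ighg3. Over the aligned coding bases, Ighg2b and Ighg2c were 85.9% identical, and the other pairs of gamma genes were between 75.3% and 77.4% identical. Of all 50-base windows in the coding part of Ighg2b, 5.85% also occurred in Ighg2c, and no window of Ighg1, Ighg3, Ighm, Igha, Ighd or Igkc occurred in another constant gene.

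Lambda constant genes are closer to each other. The start of the coding parts of Iglc2 (270 bases) and Iglc3 (269 bases), from the same source, is given to let the pair be compared. Capitals mark bases that differ between them or have no partner, and the rest of the coding parts is identical.
Iglc2: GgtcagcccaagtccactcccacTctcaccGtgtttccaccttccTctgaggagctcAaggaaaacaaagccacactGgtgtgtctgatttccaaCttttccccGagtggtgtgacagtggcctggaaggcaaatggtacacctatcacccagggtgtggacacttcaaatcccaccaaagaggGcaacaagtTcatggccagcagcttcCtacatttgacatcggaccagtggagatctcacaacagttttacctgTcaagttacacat
Iglc3: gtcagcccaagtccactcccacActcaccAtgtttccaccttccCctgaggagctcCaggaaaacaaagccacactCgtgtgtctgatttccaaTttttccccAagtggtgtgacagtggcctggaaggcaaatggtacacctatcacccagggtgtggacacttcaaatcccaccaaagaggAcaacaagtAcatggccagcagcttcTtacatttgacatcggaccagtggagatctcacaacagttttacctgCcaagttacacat

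Iglc2 and Iglc3 differed at 11 of 314 aligned bases (96.5% identical) and shared 14.3% of their 50-base windows. Iglc1 was only 73.2% identical to Iglc2 and 73.9% to Iglc3, and shared no window. Counts of Iglc1 can therefore be separated from the other lambda genes, while those of Iglc2 and Iglc3 may share reads.

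The tumours held between 16594912 and 19793632 counts per library and the cultures between 20439449 and 29363861. In the cultures the 10 genes had 2 counts in all, both of Ighd in replicate 1 with mLJZD serum. The other 3 culture libraries had none. Over the 2 libraries of a group a floor of 3 counts equals 0.0658 CPM (counts scaled to the library total) in control cultures and 0.0602 CPM in mLJZD cultures. In contrast, the 10 genes had 1449 and 1586 counts in the saline tumours and 13044 and 10649 in the mLJZD tumours. This was 0.00736% and 0.00801% of all counts in the saline libraries and 0.0712% and 0.0642% in the mLJZD libraries. In bulk tissue, more cells of a type and more RNA per cell cannot be told apart.

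Saline tumours already held antibody RNA that the cultures lacked. Against the control culture floor, Ighm was at least 323-fold higher in saline tumours, Igkc at least 290.0-fold, Igha at least 241-fold, Ighg2b at least 106-fold, Ighg1 at least 103-fold and Jchain at least 97.1-fold. The edgeR adjusted p of these 6 genes ran from 6.94e-09 for Ighm to 5.73e-07 for Jchain. In that contrast 44.9% of all 15332 genes tested were called higher in tumours. The 6 genes passed the filter on low counts only through the tumours, so neither their number nor their adjusted p carries further weight. Ighd was at least 5.01-fold higher, Iglc1 at least 1.93-fold and Iglc2 at least 1.54-fold, on 13, 5 and 4 counts in the saline tumours. Iglc3 had 3 counts there, equal to the floor.

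In the tumours 8 of the 10 genes had both mLJZD libraries above both saline libraries, and for Ighm and Ighd the libraries overlapped. Over the 15417 genes tested in tumours, 27.9% were higher without overlap, and nothing is read from the comparison since the genes were chosen on this contrast. The filter on low counts kept 8 of the 10 genes and left out Iglc3 and Ighd, which are thus not among the 15417. Iglc3 had 2 counts in both saline replicate 1 and mLJZD replicate 2, so its lack of overlap rests on the scaling to library totals.

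Among light chains, Igkc stood at 20.4 and 17.8 CPM in the saline libraries and at 295 and 265 CPM in the mLJZD libraries. The mean was 19.1 ± 1.82 CPM (SD, n = 2) in saline and 280.1 ± 21.0 CPM in mLJZD tumours, a 14.7-fold difference with a fitted log2 fold change of 3.91 (SE 0.08). Both treated libraries were far above both saline libraries. Iglc1, the lambda 1 constant region, had 1 and 4 counts in the saline libraries and 49 and 37 in the mLJZD libraries. Its log2 fold change was 4.24 (SE 0.54), and it ran from 3.59 without saline replicate 1 to 5.45 without saline replicate 2. Iglc2 had 2 counts in each saline library and 13 and 19 in the mLJZD libraries, a log2 fold change of 3.13 (SE 0.67). Iglc3 had 2 and 1 counts against 3 and 2, which is too few for a fold. The lambda constant genes together thus had 5 and 7 counts in saline and 65 and 58 in mLJZD tumours. Most of those in mLJZD tumours came from Iglc1.

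**Figure D1:**
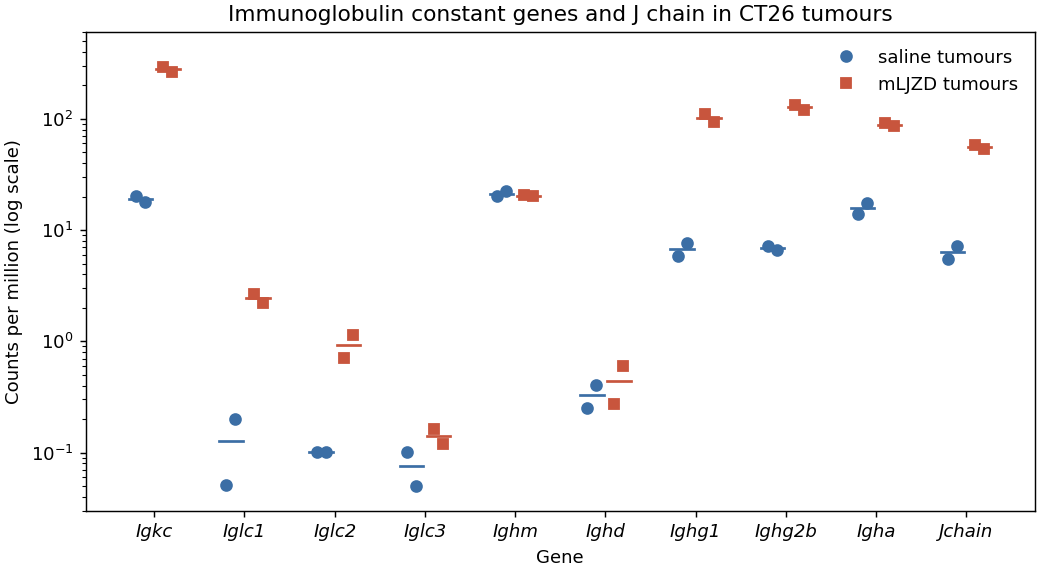
CPM on a log axis for each of the 10 genes, with 1 point per tumour library and a line at the group mean (saline circles, mLJZD squares, n = 2 each). Igkc, Ighg1, Ighg2b, Igha and Jchain of mLJZD tumours lie well above those of saline tumours, Ighm lies at about 20.3 to 21.2 CPM in both groups, and the points of Iglc3 and Ighd rest on 10 counts or fewer per library.

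The heavy chain genes split by isotype. Ighm, the constant region of IgM, stood at 20.1 and 22.4 CPM in saline and 20.6 and 20.1 CPM in mLJZD tumours. The libraries of the 2 groups overlapped, with a log2 fold change of -0.03 (SE 0.10), which ran from -0.12 to 0.06 over the alternatives. Ighd, the constant region of IgD, had 5 and 8 counts in saline and 5 and 10 in mLJZD libraries, which overlapped as well.

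The switched isotypes were higher. Ighg1 stood at 5.89 and 7.63 CPM in saline and at 109.8 and 93.8 CPM in mLJZD tumours, a 15.1-fold difference of the means (log2 3.95, SE 0.11). Ighg2b stood at 7.21 and 6.67 CPM against 133.6 and 119.6 CPM, an 18.2-fold difference (log2 4.22, SE 0.08). In neither gene did a treated library come near a saline one. Igha, the constant region of the mucosal isotype IgA, stood at 14.0 and 17.6 CPM against 91.0 and 85.4 CPM, a 5.58-fold difference (log2 2.51, SE 0.08). Its fold difference was smaller than those of both gamma genes, from a higher starting level.

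Jchain stood at 5.54 and 7.22 CPM in the saline libraries and at 58.01 and 53.4 CPM in the mLJZD libraries. The 8.73-fold difference (log2 3.16, SE 0.11) lay between those of Igha and Igkc. Relative to Ighm plus Igha, the isotypes that carry the J chain, Jchain stood at a log2 ratio of -2.85 and -2.69 in saline and of -0.97 and -1.01 in mLJZD libraries, after scaling counts to the length of the merged exons. The mean ratio was thus higher by 1.78 on the log2 scale, and the libraries did not overlap. The gamma genes, which were higher in mLJZD tumours, are not part of this ratio. Which cells made the Jchain RNA was not tested.

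Levels of different genes were compared per kilobase of merged exon. In saline tumours Igkc led at 35.8 ± 3.43 CPM per kilobase (SD, n = 2), followed by Ighm at 11.3 ± 0.89 and Igha at 5.93 ± 0.96. Ighg1 (2.61 ± 0.47), Ighg2b (2.59 ± 0.14) and Jchain (2.53 ± 0.47 CPM per kilobase) did not differ beyond their spread. Iglc1, Ighd, Iglc3 and Iglc2 lay between 0.166 and 0.278 CPM per kilobase. In mLJZD tumours Igkc led again at 526.6 ± 39.4 CPM per kilobase, but Ighm came after Ighg2b (47.3 ± 3.70), Ighg1 (39.3 ± 4.38), Igha (33.1 ± 1.48) and Jchain (22.1 ± 1.30), at 10.8 ± 0.19. Ighg2b was above Ighg1 in both treated libraries, with SD ranges that touched. Iglc1 followed at 5.40 ± 0.69, Iglc2 at 1.51 ± 0.50, Iglc3 at 0.314 ± 0.07 and Ighd at 0.230 ± 0.12 CPM per kilobase, the last pair within its spread.

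Isotype balance was expressed as the share of each isotype in the length-scaled counts of Ighm, Ighd, Ighg1, Ighg2b and Igha. A 2-sided exact permutation test of 2 against 2 libraries cannot go below p = 0.333, and none was used. IgM made up 50.7% and 49.3% of the heavy chain members in the saline libraries and 7.94% and 8.59% in the mLJZD libraries, a mean of 49.96% ± 1.01 against 8.26% ± 0.46 (SD, n = 2). IgG, as Ighg1 plus Ighg2b, made up 23.7% and 22.5% in saline and 67.1% and 65.3% in mLJZD libraries. Thus, by merged exon length, IgM was the largest class in both saline tumours and IgG the largest in both mLJZD tumours. At this length the differences were far above the spread between libraries. The order in saline depended on the length used. With the shortest annotated transcript, an alternative chosen after seeing the data, IgM and IgA stood at 35.0% and 33.1% in saline replicate 1. In saline replicate 2 IgM and IgA stood at 33.7% and 35.9%. IgG stayed the largest in both mLJZD libraries. In raw counts, without scaling, the IgM share of single libraries was 42.3% (exact 95% binomial interval 39.1% to 45.5%) and 41.0% (38.0% to 44.0%) in saline, and 5.79% (5.24% to 6.39%) and 6.28% (5.64% to 6.97%) in mLJZD tumours. These intervals cover counting error only.

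**Figure D2:**
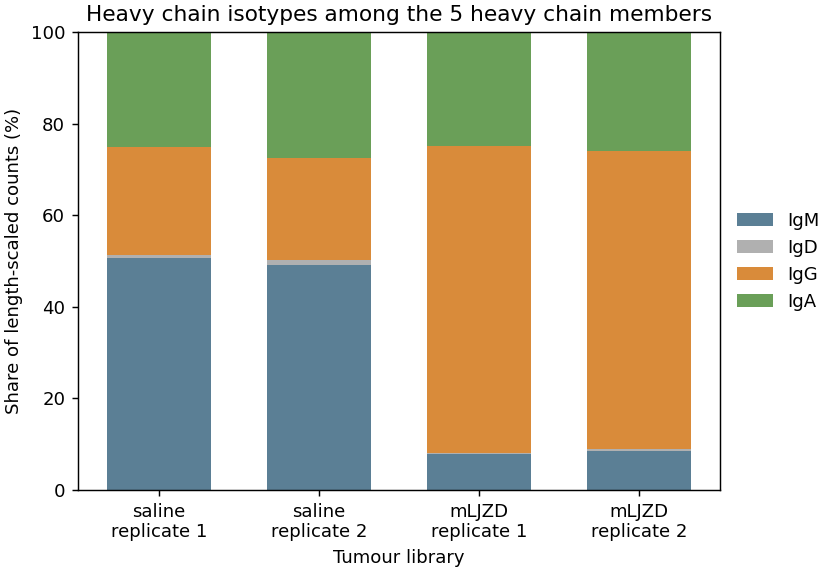
Stacked bars give the share (%) of IgM, IgD, IgG (Ighg1 plus Ighg2b) and IgA in the length-scaled counts of the 5 heavy chain members, 1 bar per tumour library. IgM takes 50.7% and 49.3% in the saline bars and 7.94% and 8.59% in the mLJZD bars, while IgG takes 67.1% and 65.3% in the latter.

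The IgA share was 25.0% and 27.4% in saline and 24.8% and 25.9% in mLJZD libraries, and the groups overlapped. This depended on the genes and lengths used. With Ighg2c, Ighg3 and Ighe in the denominator the IgA share was 23.0% ± 0.79 in saline and 16.4% ± 0.54 in mLJZD tumours, and with the shortest annotated transcript as length, an alternative chosen after seeing the data, it was 34.5% ± 1.96 and 26.5% ± 0.83. IgD took 0.637% and 0.881% of the heavy chain members in saline and 0.104% and 0.256% in mLJZD libraries. Relative to IgM, its partner in splicing, the share of Ighd in the summed raw counts of Ighd and Ighm was 1.25% and 1.77% in saline and 1.31% and 2.92% in mLJZD tumours, with exact 95% intervals that all overlapped.

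The other gamma genes are given as a description, with no test. Ighg3 stood at 1.68 and 1.41 CPM in saline and at 75.2 and 67.9 CPM in mLJZD tumours, a 46.3-fold difference (log2 5.56, SE 0.12). Ighg2c stood at 2.34 and 4.45 CPM against 60.5 and 53.1 CPM (16.7-fold, log2 4.10, SE 0.16). Mouse strains differ here, since C57BL/6, the strain of the reference genome, carries Ighg2c where BALB/c, the strain CT26 comes from, carries Ighg2a, and the annotation holds no Ighg2a. Where reads of Ighg2a were counted was not tested. Within the 4 gamma genes, Ighg3 took 7.52% ± 2.12 of length-scaled counts in saline and 18.1% ± 0.30 in mLJZD tumours, and Ighg1 took 31.1% ± 0.53 against 24.9% ± 0.55 (SD, n = 2). The shares of Ighg2b and Ighg2c overlapped between the groups. With these genes included, IgG held 32.4% ± 1.23 of heavy chain constant RNA in saline and 78.1% ± 0.92 in mLJZD tumours. Ighe, the constant region of IgE, had no count in saline and 3 and 2 counts in mLJZD libraries.

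Light chain balance was read from the constant genes and, apart from them, from the variable segments. Igkc made up 98.7% and 97.9% of length-scaled light chain constant counts in saline and 98.7% and 98.6% in mLJZD libraries. In raw counts the exact 95% interval was 97.1% to 99.6% and 96.0% to 99.2% in the saline libraries and 98.5% to 99.1% and 98.3% to 99.0% in the mLJZD libraries. In the constant genes the lambda share was detected but small throughout, and no shift was detectable at the depth of the saline libraries. Variable segments of the light chains, counted apart from the constant genes, gave a kappa share of 97.1% in both saline libraries and of 95.5% and 95.1% in the mLJZD libraries, so both mLJZD values lay below both saline values. The exact intervals of these shares overlapped between the groups, from 94.9% to 98.6% over the saline libraries and from 94.3% to 96.2% over the mLJZD libraries. Iglv1 had 8 and 10 counts in saline and 153 and 135 in mLJZD libraries, and Iglv2 had 4 and 1 against 19 and 26. The lambda segments were led by Iglv1 in each tumour library, and the lambda constant genes by Iglc1 in both mLJZD libraries. In the mLJZD libraries lambda had 172 and 161 V segment counts but only 65 and 58 constant counts. For kappa the order was the reverse, with 3671 and 3124 V segment counts and 5405 and 4403 constant counts. The kappa share of the constant genes may therefore be too high, and the reason for the difference was not tested.

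Variable segments of the heavy chain did not follow Ighm. Summed over all annotated heavy chain V genes they stood at 6.25 and 6.97 CPM in saline and at 88.2 and 90.7 CPM in mLJZD tumours, a 13.5-fold difference. The summed heavy chain constant members stood at 47.4 and 54.8 CPM against 355.3 and 319.5 CPM, a 6.60-fold difference, and at 10.7-fold for the switched genes Ighg1, Ighg2b and Igha alone. Summed kappa V segments differed 10.0-fold, from 19.4 ± 0.97 to 194.3 ± 8.55 CPM. Summed lambda V segments stood at 0.609 and 0.556 CPM in saline and at 9.39 and 9.70 CPM in mLJZD tumours, a 16.4-fold difference. The log2 ratio of heavy to light chain constant members, scaled to length, was -0.89 and -0.50 in saline and -2.03 in both mLJZD libraries. By this ratio the heavy chain members were lower relative to the light chains in treated tumours. All heavy chain constant genes together differed 8.31-fold. With them the mean log2 ratio was -0.51 in saline and -1.40 in mLJZD tumours. The V segments did not show this direction against kappa. Their fold was larger for heavy (13.5) than for kappa segments (10.0), and below that of lambda (16.4).

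Other genes of antibody production moved less uniformly. Of 17 tested plasma cell genes 7 rose and 1, Fkbp11, fell (edgeR adjusted p under 0.05). Over all genes tested 15.4% were called higher and 16% lower. Mzb1, a chaperone that helps assemble IgM, rose from 0 and 3 counts to 10 and 12 (log2 2.98, SE 0.84). It passed the filter on low counts only through the mLJZD tumours. Pou2af1, a B lineage coactivator, rose from 7 and 16 counts to 69 and 36 (log2 2.38, SE 0.42). Slamf7, a surface receptor of plasma cells and other leukocytes, rose by 0.92 (SE 0.17), and Prdm1, the transcription factor that drives plasma cell differentiation, by 0.91 (SE 0.12). Other central plasma cell genes did not pass the test. Irf4 (log2 -0.30, SE 0.24), Xbp1 (0.12, SE 0.06), Sdc1 (-0.04, SE 0.06) and Tnfrsf17 (-0.33, SE 0.45) were among them (edgeR adjusted p = 0.379, 0.129, 0.691 and 0.631). Several of these genes are also made outside the B lineage, and the list summed to between 978 and 997 CPM in the control cultures. Without mLJZD replicate 1, only 1 of 18 plasma cell genes tested was called higher and none lower, and the calls for Mzb1 (edgeR adjusted p = 0.170), Pou2af1 (0.126) and Slamf7 (0.0686) ended. That for Mzb1 also ended without saline replicate 1 (0.208), with no filter on low counts (0.0798) and with all 8 libraries in one fit (0.0647). The size of these differences also moved with the saline library left out. The log2 fold change of Mzb1 was 2.04 without saline replicate 1 and 6.55 without saline replicate 2, where the remaining saline library had no count and the value depends on the prior count. That of Pou2af1 was 3.08 without saline replicate 2.

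Of 9 tested B cell genes 4 rose and none fell, beside 15.4% higher and 16% lower over all genes tested. Pax5 and Ms4a1 passed the filter on low counts only through the mLJZD tumours. The share that rose was thus partly set by the filter, and with no filter 2 of 16 were called higher and 0 lower. Pax5, the transcription factor of B cell identity, rose from 7 and 10 counts to 82 and 80 (log2 3.44, SE 0.34, edgeR adjusted p = 6.18e-07), and Cd79a, a subunit of the B cell receptor, from 14 and 11 counts to 40 and 34 (log2 1.76, SE 0.38, edgeR adjusted p = 0.00171). Bank1 (0.80, SE 0.23) and Spib (0.63, SE 0.20), a B cell scaffold and a transcription factor, also rose. The count of rises was 1 without mLJZD replicate 1 and 1 without mLJZD replicate 2, and 2 by DESeq2 or with no filter on low counts. Pax5 was the 1 that DESeq2, each fit without a library and the fit with no filter called in common. The surface antigen Ms4a1 had 10 counts or fewer in each library.

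**Figure D3:**
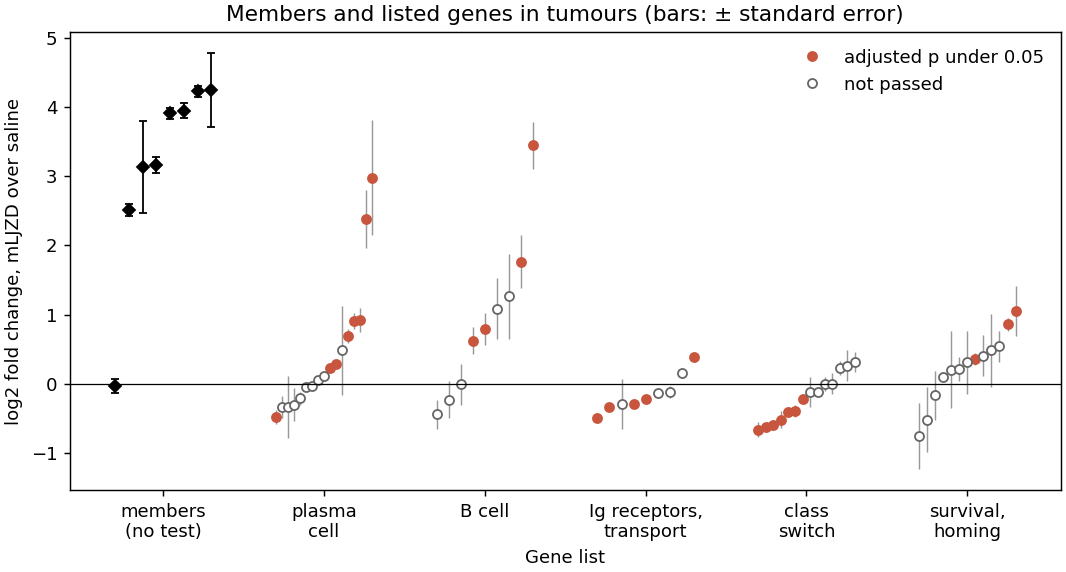
Log2 fold change of mLJZD over saline tumours with standard errors for the members that passed the filter on low counts (diamonds, no test) and for 5 lists of related genes, where filled points passed an edgeR adjusted p of 0.05 and open points did not. The members other than Ighm, at -0.03, lie between 2.51 and 4.24, while most listed genes lie near 0 and Pax5, Mzb1 and Pou2af1 stand above 2.

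Receptors for antibodies did not rise with the antibody genes. Of 9 tested genes 4 fell and 1 rose, beside 16% lower and 15.4% higher over all genes tested. Fcgrt, the neonatal receptor that recycles IgG, fell by 0.50 on the log2 scale (SE 0.05), Fcgr2b, the inhibitory IgG receptor, by 0.34 (SE 0.05) and Fcgr3, an activating one, by 0.29 (SE 0.05), while Lgals3, a lectin that binds IgE, rose by 0.39 (SE 0.04). Fcgr1, the high-affinity IgG receptor, was the other that fell (-0.22, SE 0.06). Without mLJZD replicate 1 the count of falls was 2, and the call for Fcgr3 ended (edgeR adjusted p = 0.0690). Pigr, which carries IgA and IgM across epithelia, and Fcamr had no count in any tumour library.

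Of 14 tested genes of class switching and hypermutation 7 fell and none rose, among them Ung (-0.66, SE 0.11), Msh6 (-0.62, SE 0.05) and Exo1 (-0.52, SE 0.13), repair genes that dividing cells of all kinds use. The count was 1 without mLJZD replicate 1, where the calls for Ung (edgeR adjusted p = 0.0529) and Exo1 (0.127) ended, and 3 without mLJZD replicate 2. For this list and the next, the shares over all genes tested were 15.4% higher and 16% lower. Of 13 genes of B lineage survival and homing 3 rose and none fell. The 3 were Cxcl13 (1.06, SE 0.36), Cxcr4 (0.86, SE 0.10), the receptor that holds plasma cells in bone marrow, and its ligand Cxcl12 (0.36, SE 0.08). The count was 1 without mLJZD replicate 1 or 2, and the call for Cxcl13 also ended with DESeq2 (adjusted p = 0.250) and the replicate block (0.0558).

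Markers of some other cell types also differed between the tumour groups, in either direction. Their part in the differences of the antibody genes was not tested. Over all genes tested 15.4% were called higher and 16% lower. Of 6 tested genes of granulocyte precursors, all rose, and the list summed to 3.89 to 4.72 CPM in saline and 15.2 to 16.5 CPM in mLJZD tumours. Mpo, Elane, Ms4a3 and Fcnb had no count in saline. Mpo, Elane, Prtn3 and Ngp passed the filter on low counts only through the mLJZD tumours. The number of rises among the tested genes was thus partly set by the filter. With no filter, 7 of 9 genes of this list were called higher and 0 lower. Of 5 erythroid genes all rose, with sums of 18.2 to 22.2 and 43.7 to 47.2 CPM. Among them, Hba-a2 passed the filter only through the mLJZD tumours. Without mLJZD replicate 1 a single gene of each of these lists was called, and without mLJZD replicate 2 it was 3 for granulocyte precursors and 1 for erythroid genes. Of 10 skeletal muscle genes 9 fell, with sums of 2715 to 2750 and 477 to 483 CPM. Lymph node stroma summed to 9.60 to 10.0 CPM in saline and 5.73 to 7.41 CPM in mLJZD tumours, with 1 rise, Cxcl13, and 1 fall, Lyve1, among 3 tested genes. Lyve1 made up most of the saline sum, and the other 7 genes, a split chosen after seeing the data, summed to 2.39 and 2.68 CPM in saline and 3.00 and 3.92 CPM in mLJZD tumours. Glycam1, Madcam1 and Ccl19 had 3 counts or fewer in each library and Chst4 had none. T cell genes (0 higher and 1 lower of 10) summed to 92.0 to 97.4 and 78.5 to 85.2 CPM, and macrophage genes (1 higher and 3 lower of 8) to 1486 to 1500.2 and 1252 to 1309 CPM. Of the epithelial markers Krt20 was abundant, at 2920 counts or more in each tumour library, Krt8, Krt18 and Krt20 fell in mLJZD tumours, and Cdx2, a marker of intestinal epithelium, had no count.

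The genes most like Igkc and Jchain in their profile over all 8 libraries were found by the distance between log2(CPM + 0.5) values centred on each gene's mean, with V segments and constant genes left out. Of genes with at least 0.5 CPM in tumours, Mmp12 (distance 2.69), Jchain (2.85), Srgn (3.13), Arg1 (3.15) and Gzmc (3.17) were nearest to Igkc. Mmp12 stood at 32.8 CPM in saline and 79.8 CPM in mLJZD tumours. Nearest to Jchain were Has1 (1.141), Hspa1b (1.81), Dkk2 (1.96), Hspa1a (2.05) and Hbb-bs (2.08), with Has1 at 9.65 and 42.7 CPM. All are lower or absent in the cultures and higher in mLJZD than in saline tumours, and the distance weighs both features.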

How the data were processed

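RNA counts came from 8 libraries of CT26 tumours and cultures, 2 in each of 4 groups taken from the labels. The authors deposited raw counts per gene. The submitters' processing notes name the build GRCm39, featureCounts 2.0.3, HISAT2 2.2.1, SAMtools 1.14, Trim Galore and FastQC 0.12.1. Annotation release, strandedness and treatment of multiply matching reads are not stated in the sources at hand. Symbols and exon lengths came by identifier from GENCODE M21 (build GRCm38), which named 52029 of 56953 identifiers, so no positions are printed.

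CPM were scaled to library totals. The test was that of edgeR 4.0.16 under R 4.3.3 (quasi-likelihood F test, two-sided, TMM, filterByExpr, Benjamini-Hochberg over all genes tested, threshold 0.05), in tumours and, for the blank, between saline tumours and control cultures, 4 libraries each. Each SE was obtained from the log2 fold change and the square root of F. DESeq2 1.42.0, other scalings, no filter, a replicate block and leaving out each library were alternatives. The gene test was tested on simulated data. Shares used counts per merged exon length. The genes and lists were chosen with earlier results of these data known. All members are named, and up to 4 called genes per list with the largest change; Fkbp11, Fcgr1, Irf4, Xbp1, Sdc1, Tnfrsf17, Ms4a1, Ighe and the lambda V segments were added after their values were seen. Some listed genes are not reported here.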

Additional observations from a re-analysis of the deposited data

How the results depend on the processing

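Over the tumour fits, the log2 fold changes of Igkc (3.82 to 4.00), Ighg1 (3.77 to 4.15), Ighg2b (4.13 to 4.32), Igha (2.35 to 2.69) and Jchain (2.97 to 3.37) were positive in all 11 fits, those leaving out each library included. Genes called in tumours numbered 4835 in the main fit, 2882 with DESeq2, 1087 without mLJZD replicate 1, 1974 without mLJZD replicate 2, and 1087 to 3536 over all leave-one-out fits. Listed genes called numbered 58, and 26 to 55 when each library was left out. The replicate block called 4461 genes in tumours and 12125 between tumours and cultures. Same-numbered libraries did not deviate together over 16090 genes (Pearson r = -0.08 between tumour groups and -0.01 between saline tumours and control cultures), so the numbers were not taken as pairs. The difference in kappa share (0.35 percentage points) was -1.77 with V segments. The difference in IgM share (-41.7 points) was -35.6 with raw counts, -29.8 with shortest transcripts and -38.6 with all constant genes. That in IgG (43.1) was 40.8, 38.6 and 45.7 in turn, that in IgA (-0.85) was -4.69, -7.99 and -6.60, and that in IgD (-0.58) was -0.79 with shortest transcripts. The log2 shift of Jchain to Ighm plus Igha (1.78) was 1.58 with raw counts and 1.42 with shortest transcripts, and that of heavy to light chains (-1.34) was -1.005 with shortest transcripts and -0.90 with all constant genes. These moves follow from the lengths and genes put in; gene models include membrane exons, which secreted forms lack. Depth limits Iglc1, Iglc2, Iglc3 and Ighd, at 10 counts or fewer in each saline library.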
